A study of Homo sapiens with 44 samples.

Results

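The 51 genes described here encode the machinery that copies DNA and the machinery that divides it between daughter cells. They were taken by symbol from a given list, without use of any measured value, and all 51 were found among the 33538 gene identifiers of the tables. Of these, 26 act in DNA replication and 25 in mitosis, and all 51 passed the filter on low counts. The lowest count of any of them in any library was 31, for E2F2.

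Before S phase, origins are licensed when CDC6 and CDT1 load the MCM helicase, which CDC45 and the GINS complex later switch on. Most of these genes are driven by E2F transcription factors, which the retinoblastoma protein and its relatives hold in check until cyclin-dependent kinases release them. Mitotic genes are switched on later, by FOXM1 and a MYB-containing complex that binds the CHR (cell cycle genes homology region) element, and in resting cells the DREAM complex silences both classes. The CDK inhibitor p21, encoded by CDKN1A, leads into that silencing.

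OVCAR5 cells, labelled as ovarian carcinoma and carrying an IFNγ-sensing reporter and CFP in every group, were exposed to T-cell cytokines in culture. The groups were unstimulated cells, IFNγ at 0.01, 1 or 100 ng/ml, TNFα at 0.1, 1 or 10 ng/ml, IFNγ 100 ng/ml together with TNFα 10 ng/ml (the combination), and medium conditioned by tumor cells cultured with T cells (supernatant), at dilutions of 1/2, 1/200 and 1/20000. Each of the 11 treatments was sampled after 2, 6, 12 and 24 h without a break in exposure, which gave 44 messenger RNA libraries, 1 per treatment and duration. Beyond that the labels do not describe the cells behind the supernatant, nor say whether each library is its own culture; a p-value therefore speaks only of the spread among libraries, which may be technical.

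The libraries held 9586125 to 16270128 estimated counts in total. In the deposited names of the libraries, the sequencing order numbers of the 2 h and 6 h libraries all precede those of the 12 h and 24 h libraries, and most index sequences recur between both sets. No label says what the sets are, and set and duration cannot be told apart. Ratios to unstimulated cells were therefore taken within a duration. Epithelial keratins were abundant (KRT8 at 696 to 1552 TPM, a level scaled for gene length and library size), and of the ovarian carcinoma markers PAX8 was detected in every library, at 4 to 15.7 TPM, while WT1 and MUC16 did not exceed 0.618 and 0.295 TPM. Of 16 T-cell markers, CD3E had 0 counts in all 44 libraries, and CD3D, CD3G, CD2, CD8B, PTPRC, TRAC, GZMB and PRF1 had at most 1. The highest counts of the others were 48 for LCK, 17 for CD7, 14 for TRBC2, 11 for CD8A, 4 for CD5 and TRBC1 and 3 for CD4. LCK and TRBC2 were detected in every library.

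Replication and mitosis genes carry different short elements in their promoters. The RefSeq promoter table (GRCh38.p14) held 43 of the 51 genes, 23 for replication and 20 for mitosis, and the 250 bases upstream of each start site were searched on both strands. It was not used for AURKA, BIRC5, E2F8, FOXM1, MCM4, MCM5, TPX2 and TTK. An E2F element (TTTCCCGC, TTTCGCGC, TTTGCCGC or TTTGGCGC) was found in 14 of 23 replication genes (60.9%), in 2 of 20 mitosis genes (10%) and in 3.4% of 27305 genes. A CHR element (TTTGAA or TTCGAA) was found in 11 of 20 mitosis genes (55%), in 2 of 23 replication genes (8.7%) and in 17.2% of all genes. The CCAAT box was in 73.9% of replication genes, 85% of mitosis genes and 37% of all genes. A match describes these letters and not a bound site.

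Upstream windows of 3 replication genes are shown because they carry E2F elements and belong to the helicase (MCM6), to the factor itself (E2F1) and to the sliding clamp of the fork (PCNA). Each runs 5′ to 3′ towards the start site along the strand of the gene, and capitals mark E2F elements, CHR elements and CCAAT boxes on either strand, with ATTGG the CCAAT box read from the opposite strand. Overlapping elements are merged into 1 run of capitals.
MCM6, chr2:135876444-135876603, minus strand: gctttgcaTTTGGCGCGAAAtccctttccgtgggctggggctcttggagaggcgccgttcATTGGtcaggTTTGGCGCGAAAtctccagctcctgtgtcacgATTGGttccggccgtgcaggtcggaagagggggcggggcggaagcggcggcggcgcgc
E2F1, chr20:33686386-33686545, minus strand: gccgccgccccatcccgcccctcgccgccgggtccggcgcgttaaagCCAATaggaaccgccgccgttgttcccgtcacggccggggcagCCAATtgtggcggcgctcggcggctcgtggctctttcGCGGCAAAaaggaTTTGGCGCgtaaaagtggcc
PCNA, chr20:5126623-5126782, minus strand: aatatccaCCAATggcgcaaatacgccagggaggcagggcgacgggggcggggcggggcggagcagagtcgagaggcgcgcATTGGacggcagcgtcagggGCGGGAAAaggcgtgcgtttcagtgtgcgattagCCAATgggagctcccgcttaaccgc

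Windows of 3 mitosis genes are shown for the CHR element near the start site. They belong to the mitotic cyclin CCNB2, the mitotic kinase PLK1 and the proliferation mark MKI67, and capitals have the same meaning.
CCNB2, chr15:59104986-59105145, plus strand: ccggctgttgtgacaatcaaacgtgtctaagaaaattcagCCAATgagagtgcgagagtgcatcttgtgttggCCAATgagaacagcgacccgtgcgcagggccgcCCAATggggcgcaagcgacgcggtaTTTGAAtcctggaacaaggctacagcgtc
PLK1, chr16:23678729-23678888, plus strand: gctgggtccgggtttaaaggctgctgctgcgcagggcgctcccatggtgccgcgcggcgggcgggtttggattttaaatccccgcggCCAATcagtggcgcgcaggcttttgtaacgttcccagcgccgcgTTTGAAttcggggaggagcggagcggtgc
MKI67, chr10:128126424-128126583, minus strand: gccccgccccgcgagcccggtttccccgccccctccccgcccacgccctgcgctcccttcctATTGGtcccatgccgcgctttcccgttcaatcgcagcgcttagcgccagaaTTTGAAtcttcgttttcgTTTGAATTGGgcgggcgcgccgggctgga

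Across unstimulated libraries the 51 genes covered a wide range of levels. The helicase gene MCM4 was the most abundant, at 445 TPM ± 78.2 (SD over the 4 durations, n = 4), next to CDC20, the activator of the anaphase-promoting complex, at 437 ± 86.0. These neighbours do not differ beyond their spread. CCNB1, which encodes cyclin B1, stood at 369 ± 43.2 TPM and TOP2A, the topoisomerase that untangles chromosomes, at 308 ± 28.5. The lowest levels were those of POLA1, a DNA polymerase alpha subunit, at 7.97 ± 0.868 TPM, and of the activator E2F2 at 3.03 ± 0.747.

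To ask which stimuli change these genes, each treatment was fitted against the unstimulated cells over all 44 libraries, 4 libraries against 4. Values are fitted log2 fold changes ± SE at the mean log2 duration (7.67 h), and a gene counted as called when its adjusted p was below 0.05. The combination and supernatant 1/2, the strong stimuli below, lowered nearly the whole set. Under the combination 21 of 26 replication genes and 24 of 25 mitosis genes fell, against 22.4% of all 14469 genes tested, and under supernatant 1/2 all 26 replication and 23 of 25 mitosis genes fell, against 20.8%. None rose under either, where 23.5% and 22.6% of all genes did. The median fitted value of replication genes was -0.32 under the combination and -0.45 under supernatant 1/2, that of mitosis genes was -0.41 under both, and that of all genes was -0.02 under both. Both comparisons share the unstimulated libraries.

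These counts depend on the model and on the libraries that are fitted together. With the 2 h and 6 h libraries alone 18 genes fell under the combination and 12 under supernatant 1/2, with the 12 h and 24 h libraries alone 43 and 41, and with no library but those compared 2 and 8. Those fits also had no slope terms, and a fit on part of the durations describes the effect at those durations. The part of the pooled spread in these changes can therefore not be told. In bulk RNA, fewer cells in S phase or mitosis and less RNA per cell cannot be told apart. Epithelial and ovarian carcinoma markers also moved. Of 9 tested, 4 fell and 1 rose under the combination and 5 fell and 1 rose under supernatant 1/2, the riser being PAX8 (0.62 ± 0.13 and 0.39 ± 0.13). All 11 genes, of which KRT8 and KRT18 make up most, summed to 3139 to 3412 TPM in unstimulated cells, 1945 to 3116 TPM under the combination and 1828 to 3222 TPM under supernatant 1/2, against 2326 to 3072 TPM under TNFα 1 ng/ml and 2342 to 3148 TPM under TNFα 10 ng/ml. Their part in the results was not tested.

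**Figure D1:**
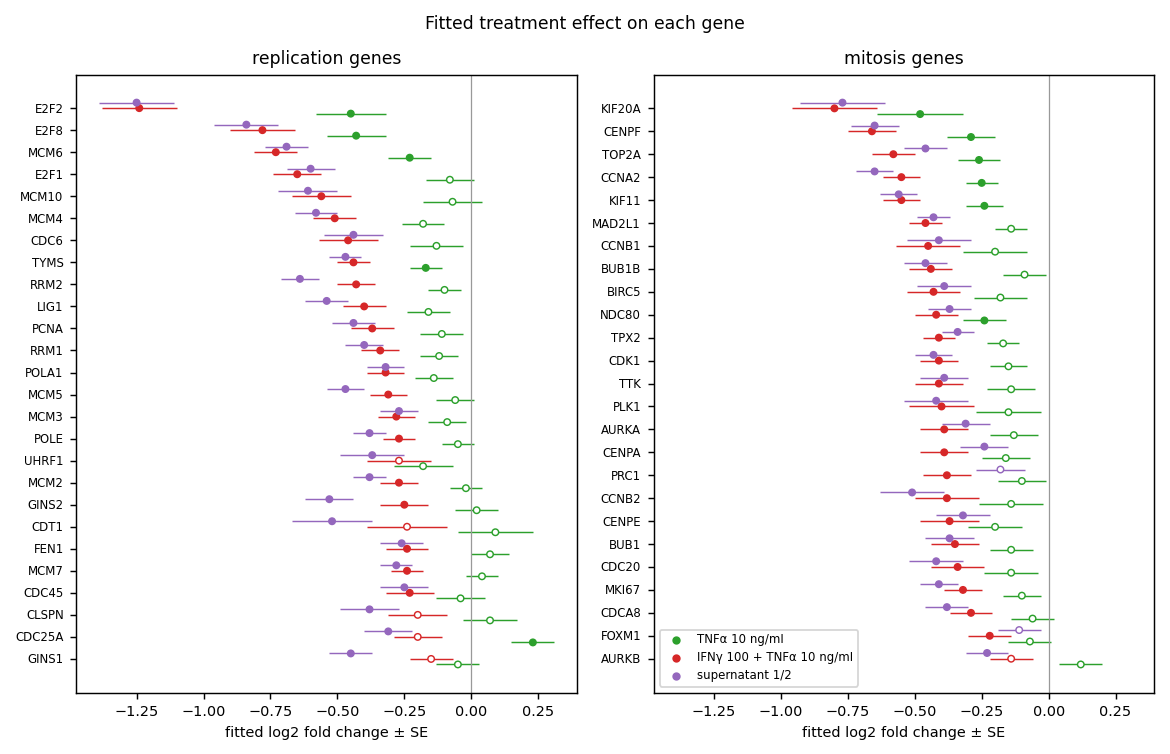
Fitted log2 fold change ± SE of each gene against unstimulated cells under TNFα 10 ng/ml, the combination and supernatant 1/2, with filled points for genes past the threshold. Under both strong stimuli all 51 points lie left of 0, with E2F2 farthest among replication and KIF20A among mitosis genes.

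Of the weaker stimuli, 6 gave no calls in the set. Under IFNγ 0.01, 1 and 100 ng/ml, TNFα 0.1 ng/ml, and supernatant 1/200 and 1/20000 edgeR called 0 of the 51 genes, while it called 0%, 1.99%, 6.47%, 1.6%, 3.73% and 0% of all genes lower in that order. At an unadjusted p under 0.05, IFNγ 100 ng/ml had 2 genes lower and 1 higher, TNFα 0.1 ng/ml had 5 lower and supernatant 1/200 had 1 lower. The other 3 treatments had 0, and DESeq2 called 0 in all 6. Under IFNγ 100 ng/ml E2F2 had the lowest value (-0.27 ± 0.12, adjusted p = 0.159), and the medians were 0.03 for replication and -0.05 for mitosis genes.

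TNFα alone gave few calls. At 1 ng/ml 2 of 26 replication and 4 of 25 mitosis genes fell, against 7.42% of all genes, and at 10 ng/ml 4 and 6 fell, against 10.1%. For replication genes that is near the share of all genes at 1 ng/ml and little above it at 10 ng/ml. Of the 9 epithelial and ovarian carcinoma markers tested, 4 fell and 2 rose at 10 ng/ml. The replication genes that fell at 10 ng/ml were the activator E2F2 (-0.45 ± 0.13) and the late repressor E2F8 (-0.43 ± 0.11). The others were MCM6 (-0.23 ± 0.08) and the thymidylate synthase gene TYMS (-0.17 ± 0.06). The mitosis genes were the midzone kinesin KIF20A (-0.48 ± 0.16), the kinetochore gene CENPF (-0.29 ± 0.09), TOP2A (-0.26 ± 0.08), CCNA2 (-0.25 ± 0.06), NDC80 (-0.24 ± 0.08) and KIF11 (-0.24 ± 0.07). One gene rose at 10 ng/ml, as did 14.3% of all genes: CDC25A, the phosphatase that activates S-phase kinases, by 0.23 ± 0.08 (adjusted p = 0.0467). DESeq2 did not call it, and with the 2 h and 6 h libraries alone its value was -0.01. These counts rest on few libraries. At 10 ng/ml the 10 genes that fell became 1 without slopes, 1 with the 12 h and 24 h libraries alone, 3 without the 2 h unstimulated library, and 6 without either the 2 h or the 12 h TNFα library. At 1 ng/ml the 6 genes became 2 without the unstimulated library of 2, 12 or 24 h, 1 without the 6 h TNFα library, 0 without the 12 h one and 10 without the 24 h one.

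Of the 6 S-phase regulators, 3 fell under the combination and 6 under supernatant 1/2. E2F2, which had the lowest fitted value of all 51 genes under both, stood at 13.1, 9.74, 13.6 and 12.5 CPM (counts scaled to library size) in unstimulated cells at 2, 6, 12 and 24 h. Under the combination it stood at 12.0, 4.13, 3.72 and 3.71 CPM, and under supernatant 1/2 at 9.99, 4.56, 4.42 and 3.39. From 6 h on, all 6 of these libraries were below every other library, where E2F2 ranged from 6.02 to 15 CPM with a median of 10.0 over the 32 libraries of the other 8 treatments. The fitted change was -1.24 ± 0.14 (adjusted p = 2.1e-08) under the combination and -1.25 ± 0.14 (adjusted p = 1.59e-08) under supernatant 1/2. E2F2 (ENSG00000007968) lies on chromosome 1 from 23506430 to 23531220, minus strand, in the GENCODE v29 annotation of GRCh38.

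E2F1, the founding activator of S-phase genes, stood at 54.6, 45.2, 46.4 and 41 CPM in unstimulated cells. It stood at 55.3, 29.7, 21 and 22 CPM under the combination and at 49.2, 32.4, 25.6 and 22 CPM under supernatant 1/2, against 34.9 to 60.9 (median 44.5) in the 32 libraries of other treatments. From 6 h on both strong stimuli lay below all of those. The fitted values were -0.65 ± 0.09 and -0.60 ± 0.09. E2F8, which represses E2F targets late in S phase, followed at -0.78 ± 0.12 and -0.84 ± 0.12. UHRF1, which keeps DNA methylation through replication (-0.27 ± 0.12), CDC25A (-0.20 ± 0.09) and the checkpoint adaptor CLSPN (-0.20 ± 0.11) did not pass under the combination, and all 3 fell under supernatant 1/2 (-0.37 ± 0.12, -0.31 ± 0.09 and -0.38 ± 0.11).

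Of the 12 licensing and helicase genes, 10 fell under the combination and 12 under supernatant 1/2. MCM6 changed most, to -0.73 ± 0.08 and -0.69 ± 0.08, followed by MCM10, which helps the helicase fire (-0.56 ± 0.11 and -0.61 ± 0.11), and MCM4 (-0.51 ± 0.08 and -0.58 ± 0.08). MCM7, another subunit of the same ring, stood at -0.24 ± 0.06 and -0.28 ± 0.06. The 2 that missed the threshold under the combination were CDT1 (-0.24 ± 0.15) and GINS1 (-0.15 ± 0.08).

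All 8 fork and nucleotide supply genes fell under both strong stimuli. PCNA stood at 231, 196, 208 and 165 CPM in unstimulated cells. Under the combination it was 230, 160, 123 and 121 CPM, and under supernatant 1/2 it was 221, 164, 129 and 98.2 CPM, against 155 to 239 (median 193) in the 32 libraries of other treatments. At 2 h the PCNA groups overlapped, and at 12 h and 24 h both strong stimuli were below every other library. The fitted values were -0.37 ± 0.08 and -0.44 ± 0.08. The ribonucleotide reductase gene RRM2, which sets the supply of DNA building blocks, reached -0.43 ± 0.07 and -0.64 ± 0.07, and the ligase LIG1 -0.40 ± 0.08 and -0.54 ± 0.08. FEN1, the nuclease that trims Okazaki fragments, had the smallest change of the 8, at -0.24 ± 0.08 and -0.26 ± 0.08.

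**Figure D2:**
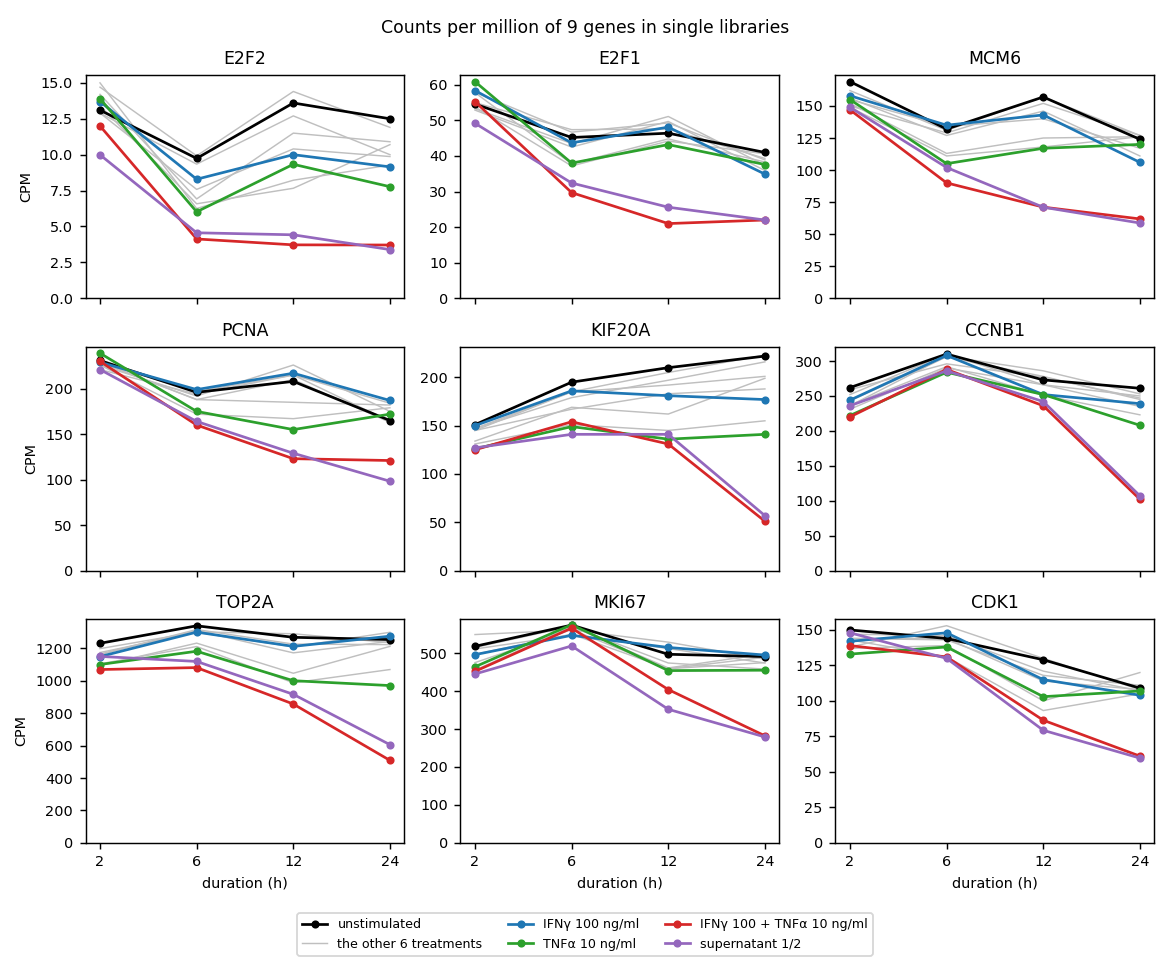
Level in CPM of 9 genes against duration in single libraries, with unstimulated cells in black, 4 treatments in colour and the other 6 in grey. E2F2 reached 4.13 CPM by 6 h under the combination, while CCNB1 stood at 288 CPM at 6 h and 102 CPM at 24 h.

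Among mitosis genes KIF20A, a kinesin of the central spindle, moved most. It stood at 151, 195, 210 and 222 CPM in unstimulated cells at 2, 6, 12 and 24 h. Under the combination it was 125, 154, 131 and 51.0 CPM, and under supernatant 1/2 it was 127, 141, 141 and 56.8 CPM. At 24 h both were below all 32 libraries of other treatments, which ranged from 126 to 223 CPM (median 168). The fitted values were -0.80 ± 0.16 (adjusted p = 3.87e-04) and -0.77 ± 0.16 (adjusted p = 6.27e-04), and those at 24 h -1.52 ± 0.27 and -1.41 ± 0.27. KIF20A (ENSG00000112984) lies on chromosome 5 from 138178719 to 138187715, plus strand, in the same annotation.

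Among cyclins and kinases of mitotic entry the lowest values came at 24 h. CCNB1 stood at 262, 310, 273 and 261 CPM in unstimulated cells, at 220, 288, 236 and 102 CPM under the combination, and at 236, 286, 242 and 107 CPM under supernatant 1/2. The other treatments ranged from 208 to 310 CPM (median 252), so that only the 24 h libraries of the strong stimuli left that range. CDK1, the kinase that cyclin B1 activates, stood at 150, 144, 129 and 109 CPM in unstimulated cells, at 139, 131, 86.4 and 61.1 under the combination, and at 148, 130, 79.3 and 59.7 under supernatant 1/2. It lay below the 93.2 to 153 CPM of the other treatments (median 131) from 12 h on. All 8 genes of this class fell under the combination and 7 under supernatant 1/2, led by CCNA2, the cyclin shared by S phase and mitosis (-0.55 ± 0.07 and -0.65 ± 0.07). CCNB2, the second B-type cyclin, stood at -0.38 ± 0.12 and -0.51 ± 0.12. The gene not called under supernatant 1/2 was FOXM1, the factor that switches on mitotic genes, at -0.22 ± 0.08 and, not called, -0.11 ± 0.08.

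The marks used to score proliferation also fell. MKI67 stood at 518, 574, 497 and 491 CPM in unstimulated cells, at 452, 566, 404 and 282 under the combination, and at 445, 519, 352 and 279 under supernatant 1/2. In the other treatments it ranged from 454 to 575 CPM (median 496), and the strong stimuli were below that range at 2, 12 and 24 h. TOP2A stood at 1232, 1340, 1269 and 1255 CPM in unstimulated cells, at 1070, 1082, 857 and 509 under the combination and at 1151, 1120, 917 and 606 under supernatant 1/2, against 971 to 1317 (median 1211) in the 32 libraries of other treatments. The strong stimuli lay below that range at 12 h and 24 h. Their fitted values were -0.32 ± 0.07 and -0.41 ± 0.07 for MKI67, and -0.58 ± 0.08 and -0.46 ± 0.08 for TOP2A.

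All 8 checkpoint and kinetochore genes fell under both stimuli, led by CENPF (-0.66 ± 0.09 and -0.65 ± 0.09). The smallest change was that of the checkpoint kinase BUB1 under the combination (-0.35 ± 0.09) and of CENPA, the histone variant of centromeres, under supernatant 1/2 (-0.24 ± 0.09). Of the 7 spindle, midzone and passenger genes 6 fell under each. After KIF20A these were led by the spindle motor KIF11 (-0.55 ± 0.07 and -0.56 ± 0.07). The passenger kinase AURKB was not called under the combination (-0.14 ± 0.08) and fell by 0.23 on the log2 scale under supernatant 1/2, and PRC1, which bundles midzone microtubules, was not called under supernatant 1/2 (-0.18 ± 0.09).

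The time courses of replication and mitosis genes differed, a description that was not tested. Under the combination the median ratio of replication genes to unstimulated cells was lowest at 12 h and that of mitosis genes at 24 h. Under supernatant 1/2 both medians were lowest at 24 h. The replication level itself did not recover under the combination. Against the 2 h combination library its median was -0.82 at 12 h and -0.94 at 24 h. In unstimulated cells, against their own 2 h library, it was -0.19 and -0.43. The median log2 ratio of the 26 replication genes to unstimulated cells was -0.01, -0.31, -0.61 and -0.44 at 2, 6, 12 and 24 h of the combination, and -0.08, -0.40, -0.62 and -0.72 under supernatant 1/2. That of the 25 mitosis genes was -0.16, -0.12, -0.37 and -1.06 under the combination, and -0.15, -0.13, -0.31 and -1.05 under supernatant 1/2. Under both, replication genes were thus already low at 6 h, when the mitosis median was no lower than at 2 h. Mitosis genes were lowest at 24 h. Replication medians at 6 h were also -0.13, -0.25 and -0.17 under TNFα 0.1, 1 and 10 ng/ml, and -0.05 under IFNγ 100 ng/ml. Mitosis medians at 2 h were -0.13, -0.16, -0.18 and -0.07 in the same order. All ratios of a duration share 1 unstimulated library. The median of all genes was no lower than -0.04 in any of these libraries. For 1 gene, a ratio of 2 single libraries has an SD of about 0.171 at the median variation between libraries, leaving out counting noise. That SD does not measure the spread of these medians.

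All 25 mitosis genes had their lowest ratio at 24 h under either strong stimulus. Of the 26 replication genes, 4 were lowest at 6 h, 17 at 12 h and 5 at 24 h of the combination, against 3, 7 and 16 under supernatant 1/2. CLSPN and CDC25A had ratios of 0.14 and 0.10 at 24 h of the combination, and of -0.45 and -0.43 under supernatant 1/2. Between 12 h and 24 h their unstimulated levels fell, from 17.9 to 13.6 TPM for CLSPN and from 11.7 to 5.96 TPM for CDC25A. A ratio above 0 at 24 h therefore need not mean that the level rose again.

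**Figure D3:**
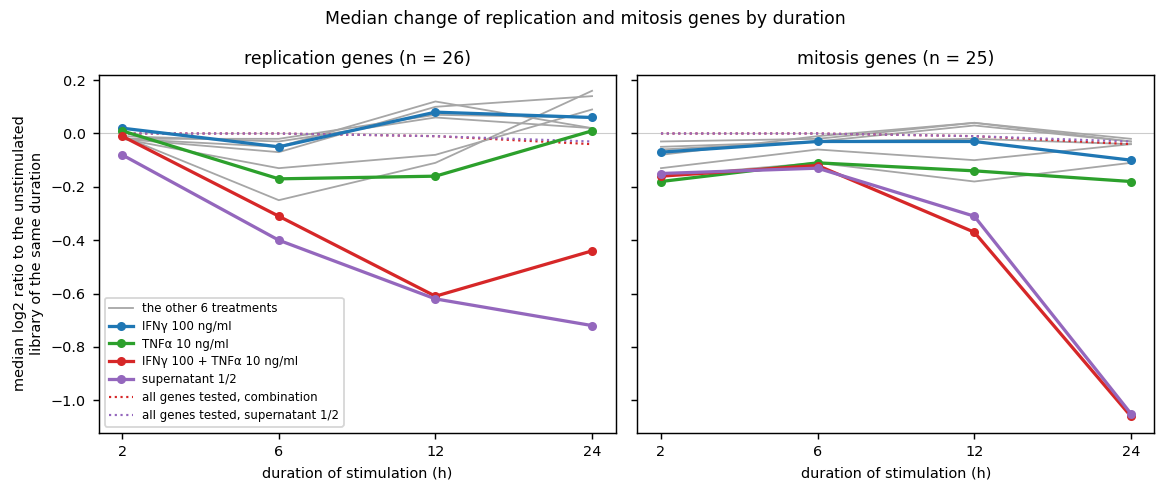
Median log2 ratio to the unstimulated library of the same duration for 26 replication genes (left) and 25 mitosis genes (right), by duration in hours. Under both strong stimuli the replication median was near -0.6 at 12 h, where the mitosis median was between -0.37 and -0.31, and the mitosis median fell to -1.06 and -1.05 at 24 h.

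Set against the 9 other libraries of a duration (unstimulated cells and the 8 weaker treatments), the 12 h combination library was lowest in 26 replication and 24 mitosis genes (23.7% of all genes), and the 12 h supernatant 1/2 library in 26 and 20 (22.7%). At 24 h these counts were 24 and 25 for the combination (31.2% of all genes) and 26 and 25 for supernatant 1/2 (29.9%).

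**Figure D4:**
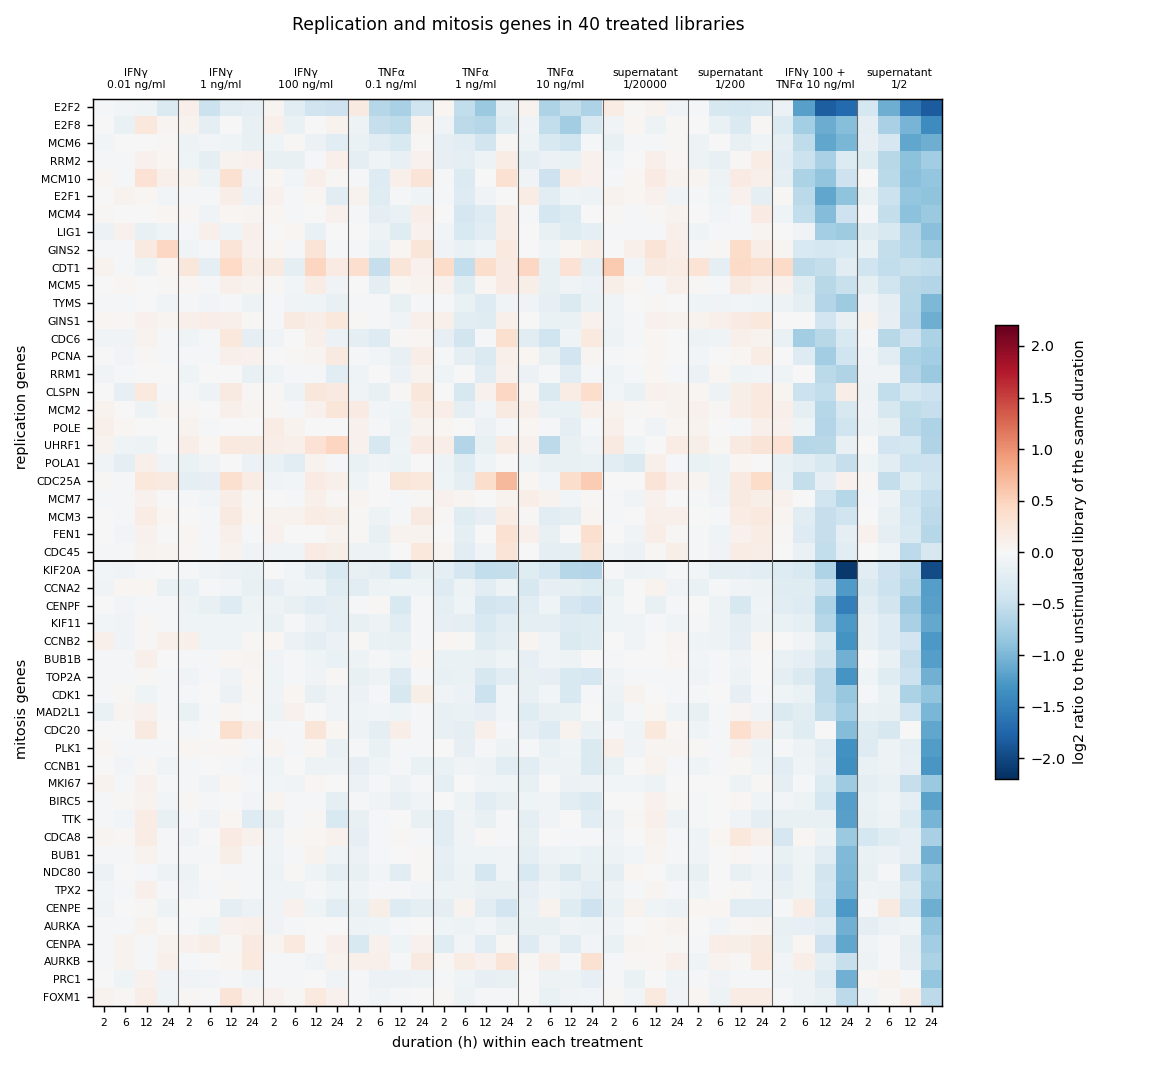
Log2 ratio of each gene (rows, replication above and mitosis below the line) in the 40 treated libraries to the unstimulated library of the same duration, in colour. The 8 libraries of the strong stimuli at the right hold the deep blue cells, in replication genes from 6 h and in mitosis genes at 24 h.

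Evaluated at 24 h, the fit called 22 replication and 25 mitosis genes lower under the combination (23.8% of all genes) and 25 and 24 under supernatant 1/2 (21.3%). On the fitted lines E2F2 was at -2.07 ± 0.23 and -1.94 ± 0.23, which is 0.238 and 0.26 of the fitted unstimulated level. A straight line need not meet the 24 h libraries. In those libraries the lowest log2 ratio of a replication gene was -1.71 and -1.83, and of a mitosis gene -2.12 and -1.96. The slope of the effect per doubling of duration was below 0 in 11 replication and 19 mitosis genes past the threshold under the combination (10.5% of all genes), and in 15 and 16 under supernatant 1/2 (7.91%). E2F2 had a slope of -0.50 ± 0.10 and -0.42 ± 0.10, and KIF20A of -0.44 ± 0.13 and -0.39 ± 0.13. The slope counts depend on single libraries: of 30 under the combination 4 were left without the 2 h unstimulated library, 15 without the 24 h one and 12 without the 24 h combination library, and of 31 under supernatant 1/2 there were 6, 15 and 10 left in the same order.

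Supernatant 1/2 and the combination were compared directly. GINS1, a subunit of the active helicase, was lower under supernatant 1/2 by -0.30 ± 0.08 (adjusted p = 0.0235) and RRM2 by -0.21 ± 0.07 (adjusted p = 0.0407). No mitosis gene was called, and 3.95% of all genes were lower. The differences of the 25 mitosis genes ran from -0.13 to 0.19 and those of the 26 replication genes from -0.30 to 0.05. The 2 calls became 0 without the 6 h combination library or the 2 h supernatant library, 1 without any other supernatant library, and 5 without the 12 h combination library. The 16 T-cell markers summed to 1.19 to 4.61 TPM under supernatant 1/2, to 4.02 to 5.39 TPM under the combination and to 2.4 to 4.47 TPM in unstimulated cells.

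To ask what dilution does, both were set against each other. Against supernatant 1/200, supernatant 1/2 was lower in 26 replication and 22 mitosis genes (14.8% of all genes), with E2F2 at -0.97 ± 0.14 and KIF20A at -0.59 ± 0.16. With the 2 h and 6 h libraries alone 5 genes passed, and with only the libraries compared 19 passed.

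To ask whether the cytokines together changed more than their sum on the log2 scale, the interaction was tested. E2F1 passed, at -0.54 ± 0.13 (adjusted p = 0.0434), and was the only one of 51, with 0.173% of all genes lower. It was -0.08 ± 0.09 under TNFα 10 ng/ml alone. The call was lost when any 1 of 13 of the 16 libraries compared was left out. It held without the 6 h TNFα library or the 2 h or 24 h combination library, and without the last of these 8 genes passed, without the 2 h one 2. All 51 interaction values were below 0, with medians of -0.33 for replication and -0.20 for mitosis genes, against -0.01 for all genes. At an unadjusted p under 0.05 by edgeR, 29 of the 51 genes were lower and 0 higher, and DESeq2 called 2 lower. All 3 terms share the unstimulated libraries.

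Levels also moved with culture time in unstimulated cells. Their summed replication TPM was 2574, 2280, 2219 and 1887 at 2, 6, 12 and 24 h, and their summed mitosis TPM 3112, 3568, 3006 and 2867. The duration terms of the fit are shared by all 11 treatments, apart from a slope per treatment. The fitted values therefore do not describe unstimulated cells alone. In the fit, 19 replication genes were lower at 6 h than at 2 h (9.17% of all genes), led by CDC6 (-0.77 ± 0.10). The kinetochore motor CENPE (0.69 ± 0.10) led 8 mitosis genes that were higher (12.2% of all genes). In the unstimulated libraries alone, log2 ratios of 6 h to 2 h ran from -0.60 to 0.47 in replication genes. Those of mitosis genes ran from -0.14 to 0.45. In the same fit 19 replication and 14 mitosis genes fell between 12 h and 24 h (24.9% of all genes). CDC25A was at -0.76 ± 0.07 and CDC20 at -0.67 ± 0.08. These counts also lean on single libraries: without the 2 h unstimulated library 6 genes were lower and 1 higher at 6 h, and 20 of 33 were lower at 24 h, and without the 24 h unstimulated library 6 were lower and 2 higher at 6 h.

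**Figure D5:**
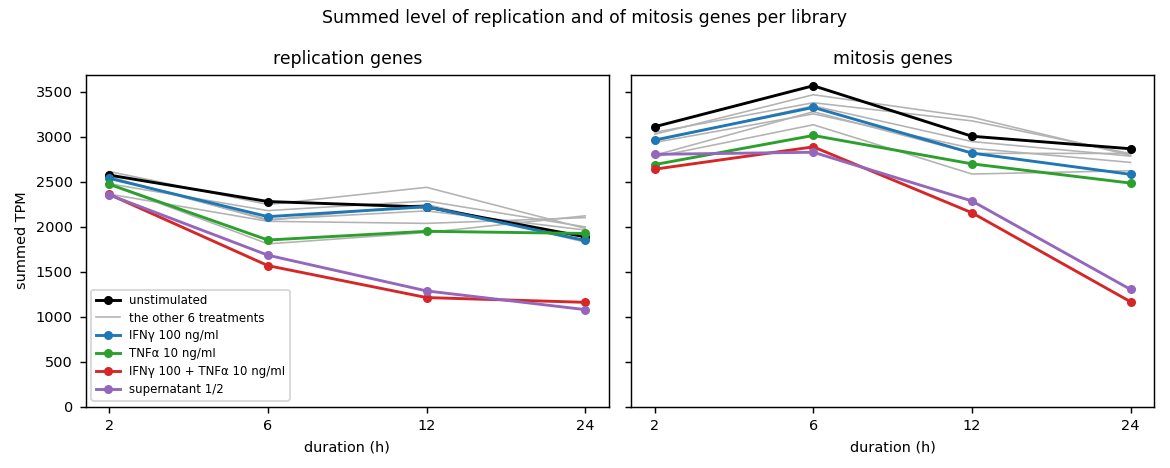
Summed TPM of 26 replication genes (left) and 25 mitosis genes (right) per library against duration in hours. At 24 h the mitosis sum was 1165 TPM under the combination and 1302 TPM under supernatant 1/2, against 2867 TPM in unstimulated cells.

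Of 37 further replication genes 27 fell under the combination and 29 under supernatant 1/2, with medians of -0.30 and -0.35, against 22.4% and 20.8% of all genes, and 0 rose. At 24 h of supernatant 1/2 the cyclin E gene CCNE1 rose (0.54 ± 0.20, adjusted p = 0.0278). Under the combination they were led by the origin gene ORC1 (-0.55 ± 0.11), the primase PRIM1 (-0.53 ± 0.11) and GINS4 (-0.51 ± 0.10), and under supernatant 1/2 by the other cyclin E gene CCNE2 (-0.96 ± 0.12), DSCC1 (-0.74 ± 0.11) and CHAF1B (-0.65 ± 0.09). Of 45 further mitosis genes 35 fell under each, with medians of -0.31 and -0.38, led by the kinetochore gene SPC24 (-0.74 ± 0.10 and -0.76 ± 0.10). These lists were set up with earlier results of these data known.

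Regulators upstream of the set were read from 3 shorter lists. CDKN1A, which encodes p21, rose by 3.14 ± 0.14 under the combination (adjusted p = 3.22e-15) and by 3.07 ± 0.14 under supernatant 1/2 (adjusted p = 5.62e-15). It also rose where few or none of the 51 genes fell, by 2.22 ± 0.14 under TNFα 10 ng/ml (adjusted p = 2.86e-11) and by 0.58 ± 0.16 under IFNγ 100 ng/ml (adjusted p = 0.0116). Of 11 CDK inhibitor and G1 cyclin genes tested, 3 fell and 2 rose under the combination, and 2 fell and 2 rose under supernatant 1/2. These counts are near the shares of all genes (22.4% and 20.8% lower, 23.5% and 22.6% higher), and nothing is read from them. CDKN1A and CCND1, which encodes cyclin D1 (0.37 ± 0.06 and 0.26 ± 0.06), rose. The inhibitors CDKN2C (-0.90 ± 0.12 and -1.09 ± 0.12) and CDKN1B (-0.43 ± 0.08 and -0.40 ± 0.08) fell. CDK4 fell by 0.10 under the combination, and MYC was not called (0.18 ± 0.16 and 0.32 ± 0.16). Evaluated at 24 h, MYC was called higher under both (0.76 ± 0.25 and 0.90 ± 0.25). CDKN1B was not called there (-0.19 ± 0.12 and 0.03 ± 0.12). In the retinoblastoma, DREAM and E2F list of 15 genes, 6 and 7 fell, against 22.4% and 20.8% of all genes. In that list 3 and 3 rose, which is near the 23.5% and 22.6% of all genes. RB1 rose by 0.32 ± 0.06 and 0.33 ± 0.06, while RBL1, which encodes p107 (-0.46 ± 0.09 and -0.60 ± 0.09), TFDP2, a partner of the E2F factors (-0.92 ± 0.09 and -0.50 ± 0.09), and LIN9 of the DREAM core (-0.58 ± 0.10 and -0.43 ± 0.10) fell. Under TNFα 10 ng/ml CDKN2C (-0.68 ± 0.12), CDKN1B (-0.38 ± 0.08), TFDP2 (-0.61 ± 0.09) and LIN9 (-0.29 ± 0.10) fell as well and CCND1 rose (0.18 ± 0.06).

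Of 12 textbook targets of p53, 2 rose and 3 fell under the combination, and 4 rose and 4 fell under supernatant 1/2. Under the combination these counts are near the 23.5% and 22.4% of all genes that rose and fell, and nothing is read from them. Under supernatant 1/2 the shares of all genes were 22.6% and 20.8%. The death gene BBC3 rose by 5.28 ± 0.40 and 5.02 ± 0.40, and MDM2 was not called (0.06 ± 0.08 and 0.14 ± 0.07). BTG2 rose under both (1.03 ± 0.21 and 0.77 ± 0.22), while SESN1 (-0.58 ± 0.13 and -0.43 ± 0.13) and ZMAT3 (-0.34 ± 0.11 and -0.27 ± 0.10) fell under both. SESN2 (1.66 ± 0.29) and GADD45A (1.22 ± 0.22) rose under supernatant 1/2 and were not called under the combination. Evaluated at 24 h of supernatant 1/2, BTG2 was called lower (-1.02 ± 0.35). Evaluated at 24 h, MDM2 was called higher under supernatant 1/2 (0.44 ± 0.12) and not called under the combination (0.28 ± 0.12).

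Genes with and without an element were set side by side. Under the combination the median fitted value was -0.30 in 14 replication genes with an E2F element and -0.27 in 9 without, and -0.39 in 11 mitosis genes with a CHR element and -0.45 in 9 without. Under supernatant 1/2 these medians were -0.46 and -0.40, and -0.42 and -0.41. No test was made of these differences.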

How the data were processed

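Messenger RNA was sequenced from 44 libraries of OVCAR5 cells. The authors deposited, per gene and library, estimated counts and TPM, per the file headers. The submitters' processing notes name Salmon, STAR, Trim Galore, UMI-tools and GRCh38 among others, with no roles or versions. The deposited estimated counts were rounded to whole numbers (18.58% to 20.57% of genes were fractional). TPM was used for levels only.

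The quasi-likelihood test of edgeR 4.0.16 (on limma 3.58.1, under R 4.3.3) was run on these counts. A filter on low counts (filterByExpr, minimum count 10, minimum total 15) left 14469 genes, and TMM scaling gave factors from 0.896 to 1.081. One model over the 44 libraries had terms for duration and treatment and a slope per treatment on log2 duration (24 coefficients, 20 residual degrees of freedom), with robust dispersion and Benjamini-Hochberg adjustment over all genes. With 1 library per condition, the error is the spread around the fitted lines (median biological coefficient of variation 8.38%). Each SE was worked back from the test, as the absolute log2 fold change divided by the square root of its F statistic. Log2 ratios of single libraries used a prior count of 2. The code was tested on simulated counts. DESeq2 1.42.0, other filters, scalings and subsets of libraries were alternatives. Fits on part of the durations or on the compared libraries alone had no slope terms.

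The members, gene lists and tests were chosen with earlier results of these data known. Any member could be named, with the 5 lowest and 3 highest fitted values per comparison within replication and within mitosis genes first. Values in every library are given for the lowest member of each group and for PCNA, MKI67, TOP2A, CCNB1, CDK1 and E2F1. Of other lists, the 3 lowest and 3 highest past the threshold and CDKN1A, MYC and CCND1 could be named. Intervals and SEs cover the spread between libraries only.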

Additional observations from a re-analysis of the deposited data

Results flagged for a closer look

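The interaction of IFNγ 100 and TNFα 10 ng/ml stood out for E2F1, because the effect of TNFα differed with and without IFNγ by the test of that difference itself. It was -0.54 ± 0.13 on the log2 scale (adjusted p = 0.0434 by edgeR). The call was lost when any 1 of 13 of the 16 libraries compared was left out, without slopes, with no filter on low counts, with the 2 h and 6 h libraries alone and with the compared libraries alone. E2F1 was lower than the 32 libraries of other treatments in the 6, 12 and 24 h combination libraries.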

How the results depend on the processing

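Changing the scaling to DESeq2 size factors left each count of genes that fell within 1.5 times its value. With DESeq2 itself the interaction count moved to 2. With no filter on low counts the count moved to 2 for TNFα 1 ng/ml, 20 for the slope of supernatant 1/2, 1 for supernatant 1/2 minus the combination, 0 for the interaction, and 5 for genes higher at 6 h than at 2 h. Without slopes it was 0 for TNFα 1 ng/ml, 1 for TNFα 10 ng/ml, 0 for supernatant 1/2 minus the combination and 0 for the interaction. With the 2 h and 6 h libraries alone it was 2 for TNFα 1 ng/ml, 18 for the combination, 12 for supernatant 1/2, 0 for its difference from the combination, 0 for the interaction and 5 for supernatant 1/2 minus 1/200. With the 12 h and 24 h libraries alone it was 0 for TNFα 1 ng/ml, 1 for TNFα 10 ng/ml, 1 for supernatant 1/2 minus the combination and 3 for the interaction. With the compared libraries alone, which leaves few degrees of freedom, it was 2 for the combination, 8 for supernatant 1/2, 0 for their difference, 0 for the interaction and 19 for supernatant 1/2 minus 1/200. The fits on part of the durations and on the compared libraries alone also lacked slope terms. The cause was not tested.

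Leaving out 1 library at a time moved the count of genes that fell from 0 to 2 for TNFα 0.1, 0 to 10 for TNFα 1, 3 to 10 for TNFα 10 ng/ml, 32 to 46 for the combination and 33 to 50 for supernatant 1/2. It was 1 to 4, 33 to 47 and 34 to 51 at 24 h for TNFα 10 ng/ml, the combination and supernatant 1/2, 4 to 30 and 6 to 35 for the slopes of the strong stimuli, 0 to 5 for their difference, 0 to 8 for the interaction, and 32 to 49 for supernatant 1/2 minus 1/200. For culture time it was 4 to 22 for 24 h minus 2 h, 6 to 20 for 6 h minus 2 h (higher, 1 to 8) and 20 to 34 for 24 h minus 12 h.

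Of single genes, AURKB turned to 0.03 under the combination with the 2 h and 6 h libraries alone and to 0.02 without its 2 h library. PRC1 turned to 0.04 and 0.01 under supernatant 1/2 in the same settings, FOXM1 to 0.05 and 0.07 without the 24 h or the 2 h supernatant library, and CDC25A to -0.01 under TNFα 10 ng/ml with the 2 h and 6 h libraries alone. With 1 library left out at a time AURKB ranged from -0.23 to 0.02, PRC1 from -0.28 to 0.01 and FOXM1 from -0.21 to 0.07 in these comparisons. E2F2 had the lowest counts, down to 31 in a library. Libraries of the same duration are matched in every fit through its duration term. No paired analysis was possible because the labels give no replicate numbers beyond that.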
